A study of Mus musculus with 6 samples.

Results

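Retinoic acid is made and removed inside embryonic tissues by a small set of enzymes and carriers, and 9 genes of this set were followed in E13.5 mouse hearts. They were taken by symbol from the 46983 genes of the count table, and encode the retinaldehyde dehydrogenases Aldh1a1, Aldh1a2 and Aldh1a3, the retinol dehydrogenase Rdh10, the retinaldehyde reductase Dhrs3, the binding proteins Crabp1 and Crabp2, and the degrading enzymes Cyp26a1 and Cyp26b1. All 9 were found, and all 9 passed the filter on low counts. Each library held the RNA of 1 whole heart, and the series compared 3 mutant embryos (Tnnt2Cre;Wt1flox, replicates 1, 5 and 10) with 3 control embryos (replicates 2, 3 and 5) of the C57BL/6 x DBA/2 strain, all at E13.5. The labels call the controls wild type, and the methods of the study describe them as lacking Cre, with both Wt1 alleles floxed as in the mutants. Wt1 encodes a zinc finger transcription factor, found in the embryonic heart above all in the epicardium, the mesothelial layer on its surface. Cre was driven by the promoter of Tnnt2, the cardiac troponin T gene, which acts in cardiomyocytes, and the methods add that some proepicardial cells recombine as well. The study also found that a fraction of the epicardial cells at E13.5 came from the Tnnt2 lineage. It therefore takes Wt1 to be deleted in a part of the epicardium too. The comparison asks whether transcripts of the retinoic acid pathway differed between mutant and control hearts.

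Retinol is first oxidised to retinaldehyde, mainly by Rdh10 in the embryo, and Dhrs3 turns retinaldehyde back into retinol. Retinaldehyde is then oxidised irreversibly to retinoic acid by an enzyme of the Aldh1a family. Inside the cell retinoic acid is bound by Crabp1 and Crabp2, the latter of which hands it to its nuclear receptors, and it is broken down by the Cyp26 enzymes. The receptors, heterodimers of a retinoic acid receptor and a retinoid X receptor, bind DNA at paired half-sites, and Cyp26a1 and Dhrs3 are themselves known targets of this signal. In the embryonic heart the epicardium is the best known source of retinoic acid, made by Aldh1a2.

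The promoter sequences of 3 genes are shown because their mutant and control hearts did not overlap in level and a sequence was at hand. RefSeq windows on GRCm38.p6, from 250 bases before to 50 bases after a transcription start, were matched for 6 of the 9 genes, and not for Aldh1a3, Rdh10 and Crabp2. The part before the start is given 5′ to 3′ on the strand of the gene, with any receptor half-site in capitals. The half-sites searched, on either strand, were AGGTCA and its variant AGTTCA, and also GGGTCA with its variant GGTTCA. For Aldh1a1 the window belongs to the start of the shorter coding transcript, which lies within the longer gene. The other Aldh1a1 window, before the RefSeq start of the longer gene (chr19:20492333-20492582), held 0 half-sites and is not shown. The windows are chr19:37697558-37697807 for Cyp26a1, chr19:20601718-20601967 for Aldh1a1 and chr4:144892577-144892826 for Dhrs3, all on the plus strand.
Cyp26a1: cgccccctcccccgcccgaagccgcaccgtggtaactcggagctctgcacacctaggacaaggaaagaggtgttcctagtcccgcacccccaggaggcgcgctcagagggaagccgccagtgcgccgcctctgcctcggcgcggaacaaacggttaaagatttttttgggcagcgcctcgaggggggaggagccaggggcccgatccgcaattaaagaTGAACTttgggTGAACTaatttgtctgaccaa
Aldh1a1: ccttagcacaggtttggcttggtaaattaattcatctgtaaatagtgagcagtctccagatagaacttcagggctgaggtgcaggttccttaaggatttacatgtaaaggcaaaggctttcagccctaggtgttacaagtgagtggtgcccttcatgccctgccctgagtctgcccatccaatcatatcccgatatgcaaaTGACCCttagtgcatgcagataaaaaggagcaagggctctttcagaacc
Dhrs3: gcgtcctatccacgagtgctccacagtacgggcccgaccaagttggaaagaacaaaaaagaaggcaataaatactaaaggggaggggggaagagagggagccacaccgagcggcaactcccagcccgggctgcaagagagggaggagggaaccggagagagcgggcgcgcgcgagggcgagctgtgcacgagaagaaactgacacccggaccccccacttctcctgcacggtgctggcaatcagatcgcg
The window of Cyp26a1 held both half-sites of a direct repeat with a spacer of 5 bases, from 32 to 16 bases before the start (chr19:37697776-37697792). Read on the opposite strand it is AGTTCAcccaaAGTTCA. Repeats of these half-sites with a spacer of 1, 2 or 5 bases were searched on both strands, and no window of the other 5 matched genes held one. Among all 32851 RefSeq windows of this length, 32 (0.0974%) held a repeat with a spacer of 5 and 193 (0.588%) a repeat with any of the 3 spacers. The capitals in the Aldh1a1 sequence mark 1 single half-site, a match found in 43.7% of all windows. The Dhrs3 sequence held none. Windows of further Dhrs3 starts (chr4:144892827-144893076 and chr4:144892887-144893136) held 0 half-sites as well and are not shown.

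The depth lay between 44244665 and 56373393 counts per heart. Several features of the hearts bear on the values that follow. Control replicate 5 stood apart in its relation to gene length: the rank correlation between length and the deviation of a gene from its mean over the hearts was -0.556 there, and between -0.0622 and 0.464 in the other hearts (11795 genes). Hepatocyte markers summed to 804 CPM (counts scaled to the library total) in control replicate 3 and to between 2.79 and 22.6 CPM in the other hearts, with 7 of the 12 markers tested, all 7 lower in mutants, and Apoc3 at 0. Foregut and lung epithelium markers summed to 24.2 CPM in control replicate 5 and 23.2 CPM in mutant replicate 5, against 2.73 to 7.48 CPM in the other hearts. Of these 12 markers 9 were tested, 3 higher and 6 lower in mutants. The 12 macrophage markers summed to 111 to 138 CPM in controls and to 179 to 195 CPM in mutants, without overlap, and 11 of them were higher and 1 lower. The defining markers of the tissue were present, with summed cardiomyocyte markers between 24920 and 29613 CPM in every heart. Wt1 itself had 2251, 1891 and 879 counts in control replicates 2, 3 and 5, against 921, 1746 and 1796 in mutant replicates 1, 5 and 10, a log2 fold change of -0.10 ± 0.31 (SE). A count over the whole gene in whole hearts includes cells that Cre does not reach and exons outside the floxed part, and so does not check the labels.

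Of the 9 genes, 3 were higher and 6 lower in the mutant hearts, and for 7 of the 9 the 95% interval of the difference included 0. Aldh1a1 was 2.06-fold higher, and Dhrs3 was lower by a log2 fold change of -0.44. The most abundant of the genes, Aldh1a2, varied 2.65-fold from heart to heart within and across the groups. With edgeR's quasi-likelihood test, adjusted by Benjamini-Hochberg over 17473 genes, 0 of the 9 had an adjusted p under 0.05, as did 0 of all genes tested (0%). At an unadjusted p under 0.05, 1 of the 9 was higher (Aldh1a1), against 3.14% of all genes, and 1 was lower (Dhrs3), against 2.59%. DESeq2 called 1 of the 9, Aldh1a1, and 133 of 19282 genes in all (0.690%). The TMM-scaled CPM of the groups did not overlap for 4 of the 9, higher in mutants for Aldh1a1 and Aldh1a3 (6.61% of all genes) and lower for Dhrs3 and Cyp26a1 (4.59%). The median log2 fold change was -0.24 over the 9 genes and -0.00 over all genes tested. With so few members these shares are descriptions. In whole hearts, fewer cells of a type and less RNA per cell cannot be told apart.

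**Figure D1:**
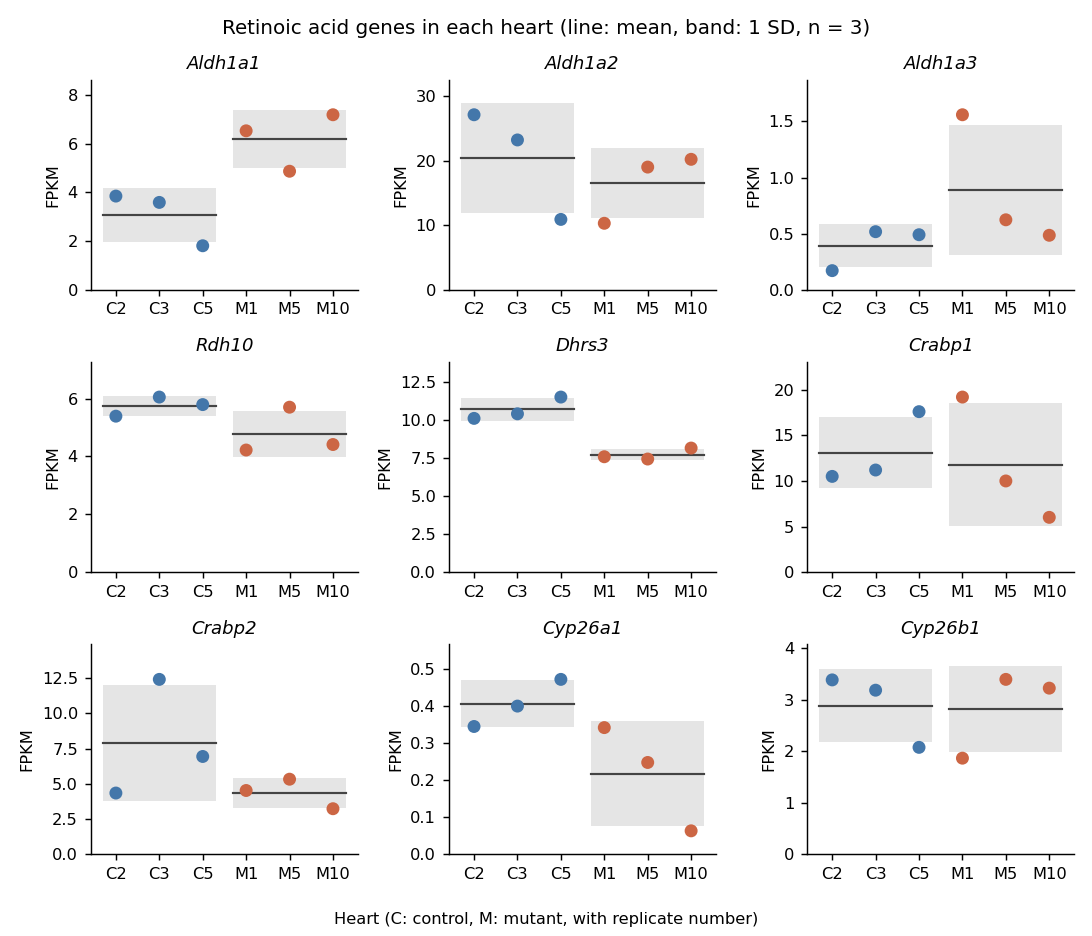
Level of each of the 9 genes in FPKM (linear axes from 0) in the 3 control hearts (blue, C) and the 3 mutant hearts (orange, M), with the group mean as a line and 1 SD as a band. Mutant hearts lie above all controls for Aldh1a1 and below all controls for Dhrs3, while Aldh1a2, Rdh10, Crabp1, Crabp2 and Cyp26b1 overlap.

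Levels can be ranked between genes only per length, in FPKM (the count divided by gene length and library total). In control hearts Aldh1a2 had the highest mean (20.4 ± 8.45 FPKM, SD, n = 3), followed by Crabp1 (13.1 ± 3.89), Dhrs3 (10.7 ± 0.745), Crabp2 (7.88 ± 4.09), Rdh10 (5.74 ± 0.335), Aldh1a1 (3.08 ± 1.11), Cyp26b1 (2.89 ± 0.704), Cyp26a1 (0.406 ± 0.0633) and Aldh1a3 (0.393 ± 0.193). The ranges of neighbours in this order overlapped except between Rdh10 and Aldh1a1 and between Cyp26b1 and Cyp26a1. In mutant hearts Aldh1a1 (6.2 ± 1.19 FPKM) ranked at 4, ahead of Rdh10 (4.78 ± 0.804) and Crabp2 (4.37 ± 1.05), though the ranges of Aldh1a1 and Rdh10 overlapped. At the low end of the mutant order Aldh1a3 (0.889 ± 0.582 FPKM) stood above Cyp26a1 (0.218 ± 0.142 FPKM), without overlap.

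Among the retinaldehyde dehydrogenases, Aldh1a1 (ENSMUSG00000053279, GRCm38 chr19:20492715-20643465) was the member with the clearest difference. Aldh1a1 encodes the family member best known from adult tissues such as the liver and the dorsal retina. Its counts were 439, 416 and 164 in control replicates 2, 3 and 5 and 684, 522 and 784 in mutant replicates 1, 5 and 10. The matching levels were 3.85, 3.59 and 1.81 FPKM in controls and 6.53, 4.87 and 7.19 FPKM in mutants. Every mutant heart was above every control heart, and control replicate 5 was the lowest of the 6. The mean was 6.25 ± 2.21 CPM in controls and 12.9 ± 2.82 CPM in mutants (SD, n = 3 each), a log2 fold change of 1.04 ± 0.28 (SE), with a 95% interval from 0.39 to 1.70. The unadjusted p of edgeR's quasi-likelihood test was 0.00628, at rank 190 of 17473 genes, and the adjusted p was 0.578. DESeq2 gave the same log2 fold change with an adjusted p of 0.04. That call was near the threshold and did not hold in every fit with a heart left out. DESeq2's adjusted p was 0.0222 without control replicate 2 and 0.00996 without control replicate 5. It was 0.0602 without control replicate 3, and 0.205, 0.06 and 0.686 with mutant replicate 1, 5 or 10 left out. Each of these fits also had fewer hearts. Over all the alternatives the log2 fold change stayed between 0.78 (without control replicate 5) and 1.23, with adjusted p-values from 0.00996 to 1, and it was 1.03 with the length trend of each heart removed. Of the 12 macrophage markers, 11 were also higher in the mutant hearts and 1 was lower. At an unadjusted p under 0.05 in edgeR 9 were higher, against 3.14% of all genes tested. Their part in the Aldh1a1 result was not tested.

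Aldh1a2 (ENSMUSG00000013584, chr9:71215789-71296243), the main retinoic acid synthesising enzyme of the early embryo and the epicardium, stood at 27.1, 23.2 and 10.9 FPKM in control replicates 2, 3 and 5 and at 10.3, 19 and 20.2 FPKM in mutant replicates 1, 5 and 10. The groups overlapped, with control replicate 5 and mutant replicate 1 low and the other 4 hearts at 19 FPKM or more. The mean was 45.6 ± 18.5 CPM in controls and 38 ± 13.4 CPM in mutants, a log2 fold change of -0.26 ± 0.36 (SE, edgeR adjusted p = 0.985). Its 95% interval ran from 0.471-fold to 1.47-fold without a covariate. The value moved to -0.56 without control replicate 5 and to -0.00 without mutant replicate 1.

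Within each heart, Aldh1a2 was close to Wt1 in its pattern. Wt1 stood at 20.9, 17.3 and 10.2 FPKM in control replicates 2, 3 and 5 and at 9.29, 17.2 and 17.4 FPKM in mutant replicates 1, 5 and 10. The ratio of Aldh1a2 to Wt1 was 1.30, 1.34 and 1.06 in controls and 1.10, 1.10 and 1.16 in mutants. It thus varied 1.26-fold over the 6 hearts, against 2.65-fold for Aldh1a2 CPM alone. The log2 ratio differed by -0.13 (mutant minus control), with an exact two-sided permutation p of 0.4. Wt1 was also at rank 4 of all tested genes by nearness to Aldh1a2 in its profile over the 6 hearts (root mean square difference of centred log2 CPM 0.13), after B3gnt7 (0.12), Svep1 (0.12) and Gm11960 (0.12) and before Gm5297 (0.14). Against the summed FPKM of the 18 epicardial markers, Aldh1a2 amounted to 7.31%, 6.98% and 3.95% in controls and to 3.58%, 5.46% and 5.17% in mutants. The groups overlapped (log2 difference -0.33, exact permutation p = 0.4). Crip1 was the largest part of that sum in every heart and, unlike Wt1, was not low in control replicate 5. It stood at 79.4, 76.8 and 88.6 FPKM in control replicates 2, 3 and 5 and at 86.5, 90.7 and 94.8 FPKM in mutant replicates 1, 5 and 10. The 18 markers summed to 442 to 696 CPM in controls and 491 to 805 CPM in mutants, and 10 of the 18 were higher and 8 lower in mutants. Members of the list moved in opposite directions. At an unadjusted p under 0.05 in edgeR, 5 were higher and 4 lower, against 3.14% and 2.59% of all genes tested. Of the 4 lower, C3 was high only in control replicate 3, with 598 counts against 28 to 88 in the other hearts. That heart also had the highest hepatocyte markers, whose part in C3 was not tested. Muc16, also lower, had only 4 to 70 counts. Both genes are part of the marker sum and of the list mean used below. DESeq2 called Krt8 higher (log2 fold change 1.13) and Tcf21 (-1.10) and Rspo1 (-1.75) lower. A further edgeR fit took the mean log2 CPM of the list, which includes Wt1, as a covariate. Aldh1a2 then had a log2 fold change of -0.24 ± 0.10 (SE), close to that without the covariate but with a smaller error. Its p in that edgeR fit was 0.0335 unadjusted and 0.436 adjusted. In the same fit 34 of all genes had an adjusted p under 0.05, against 0 without the covariate.

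**Figure D2:**
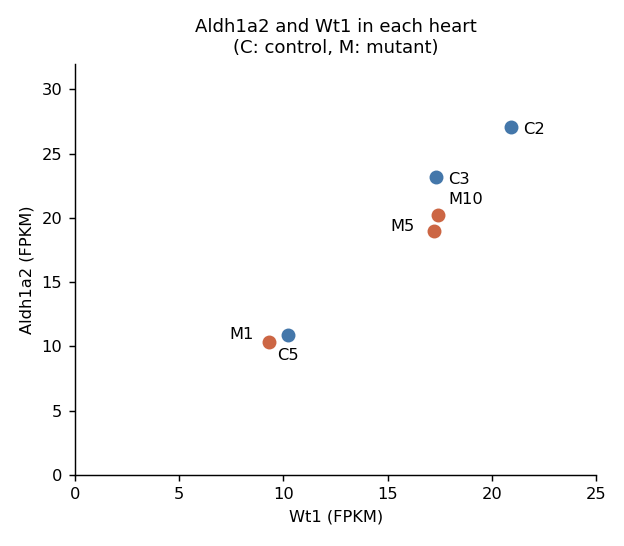
Aldh1a2 against Wt1 in FPKM (linear axes from 0), 1 point per heart, with controls in blue (C) and mutants in orange (M). Control replicate 5 and mutant replicate 1 lie together at about 10 FPKM of either gene, and the ratio spans 1.06 to 1.34.

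Aldh1a3 (ENSMUSG00000015134, chr7:66390890-66427517, minus strand), which acts in the eye and nasal region of the embryo, was near the bottom of the range, with 14, 43 and 32 counts in control replicates 2, 3 and 5 and 117, 48 and 38 in mutant replicates 1, 5 and 10. Mutant replicate 1 held the highest level, at 1.56 FPKM, and the other mutant hearts, at 0.624 and 0.486 FPKM, lay around the highest control of 0.518 FPKM. The groups did not overlap in TMM-scaled CPM (at most 0.748 in controls and at least 0.755 in mutants) but did overlap in FPKM. The log2 fold change was 1.19 ± 0.56 (SE, edgeR adjusted p = 0.909) and 0.55 without mutant replicate 1.

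The 3 dehydrogenases together summed to 31.1, 27.3 and 13.2 FPKM in control replicates 2, 3 and 5 and to 18.3, 24.5 and 27.9 FPKM in mutant replicates 1, 5 and 10, and the groups overlapped. The shares of Aldh1a2 and Aldh1a1 in this sum did not overlap between the groups, while that of Aldh1a3 did (0.55% to 3.72% in controls and 1.74% to 8.48% in mutants). Aldh1a2 supplied 87.1%, 84.9% and 82.6% of the sum in controls and 55.9%, 77.6% and 72.5% in mutants. Aldh1a1 supplied 12.4%, 13.2% and 13.7% in controls and 35.6%, 19.9% and 25.8% in mutants. The ratio of Aldh1a1 to Aldh1a2 was 0.142, 0.155 and 0.166 in controls, a narrow band that included control replicate 5, and 0.636, 0.256 and 0.356 in mutants. It was 2.51-fold higher in mutants (log2 difference 1.33), and the exact two-sided permutation p was 0.1, the smallest that 3 against 3 hearts can give, so the design cannot pass 0.05. Adjusted over the 4 ratios computed, this exact p was 0.4, and those of the other 3 ratios were 0.5. The log2 difference lay between 0.97 and 1.63 when each heart was left out in turn.

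**Figure D3:**
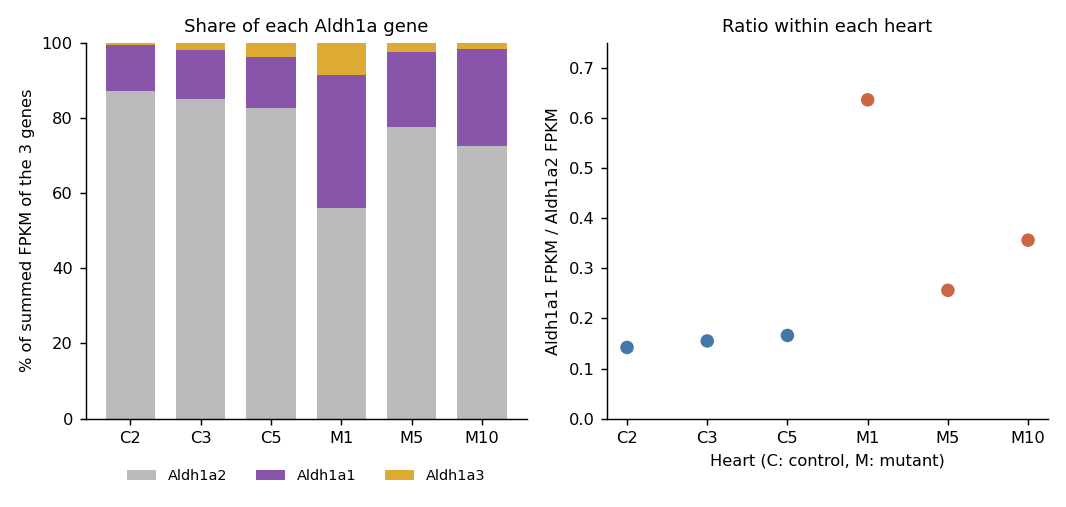
Left, stacked bars of the share of Aldh1a2 (grey), Aldh1a1 (purple) and Aldh1a3 (yellow) in the summed FPKM of the 3 genes in each heart, in percent from 0 to 100. Right, the ratio of Aldh1a1 to Aldh1a2 FPKM in each heart (controls blue, mutants orange), between 0.142 and 0.166 in controls and between 0.256 and 0.636 in mutants.

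The enzymes that act on retinol and retinaldehyde were both lower in mutants by their means. Dhrs3 (ENSMUSG00000066026, chr4:144892827-144928209) had 715, 749 and 650 counts in control replicates 2, 3 and 5 and 494, 495 and 552 in mutant replicates 1, 5 and 10. In FPKM these were 10.1, 10.4 and 11.5 in controls and 7.58, 7.43 and 8.15 in mutants, so every mutant heart was below every control heart. Unlike Aldh1a1, Aldh1a2 and Cyp26b1, Dhrs3 was not low in control replicate 5, which held its highest value. The mean was 10.7 ± 0.745 FPKM in controls and 7.72 ± 0.376 FPKM in mutants (SD, n = 3 each), and the fit to the counts gave a log2 fold change of -0.44 ± 0.13 (SE), with a 95% interval from -0.73 to -0.15. The unadjusted p was 0.00838, at rank 229 of 17473, and the adjusted p was 0.638 in edgeR and 0.294 in DESeq2, so Dhrs3 did not pass the threshold. Leaving out each heart gave log2 fold changes from -0.51 to -0.37.

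Rdh10 (ENSMUSG00000025921, chr1:16105774-16133734) stood at 5.39, 6.05 and 5.79 FPKM in controls and at 4.22, 5.70 and 4.41 FPKM in mutants, where replicate 5 overlapped the controls. Its log2 fold change was -0.24 ± 0.14 (SE, edgeR adjusted p = 0.956), and its 95% interval ran from -0.56 to 0.09. Summed, Rdh10 and Dhrs3 came to 15.5, 16.5 and 17.3 FPKM in controls and to 11.8, 13.1 and 12.6 FPKM in mutants, without overlap, and Dhrs3 made up between 56.6% and 66.6% of the sum in every heart.

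**Figure D4:**
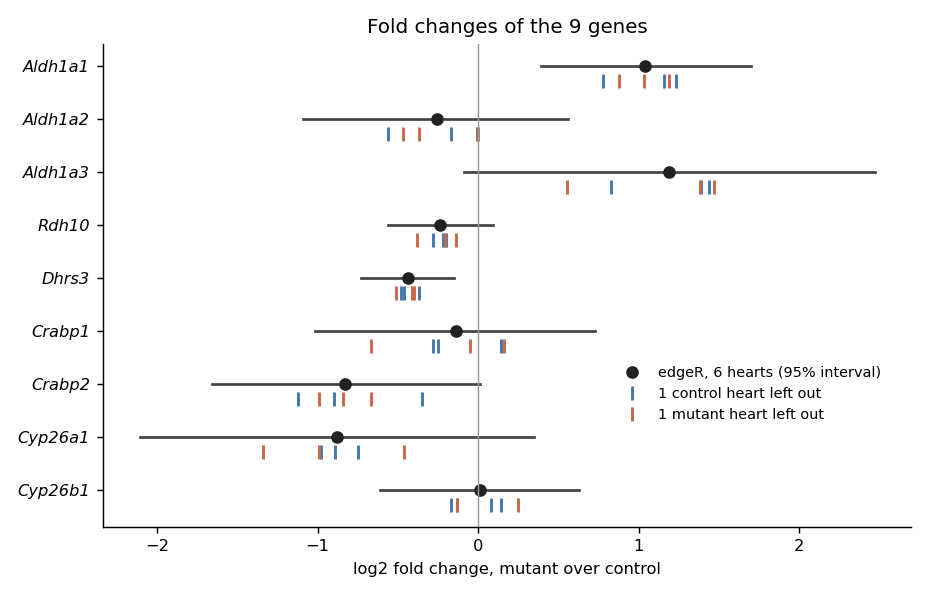
Log2 fold change of each of the 9 genes, mutant over control, with its 95% interval (edgeR, 6 hearts, black) and the values with 1 control heart (blue ticks) or 1 mutant heart (orange ticks) left out. The intervals of Aldh1a1 (0.39 to 1.70) and Dhrs3 (-0.73 to -0.15) do not include 0, before adjustment over genes, and the other 7 do.

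Neither of the cellular retinoic acid binding proteins passed the test, and both varied widely from heart to heart. Crabp1 (ENSMUSG00000032291, chr9:54764748-54773110), which retains retinoic acid in the cytoplasm, had 468, 506 and 623 counts in control replicates 2, 3 and 5 and 787, 420 and 256 in mutant replicates 1, 5 and 10. Mutant hearts held both its highest and its lowest value, a 2.98-fold spread in CPM. The log2 fold change was -0.14 ± 0.38 (SE, edgeR adjusted p = 0.99), and it turned to 0.14 without control replicate 5 and to 0.16 without mutant replicate 10.

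Crabp2 (ENSMUSG00000004885, chr3:87948666-87953376), the carrier to the nuclear receptors, had 192, 554 and 244 counts in control replicates 2, 3 and 5 and 184, 221 and 137 in mutant replicates 1, 5 and 10. Control replicate 3 was far above the other hearts, at 12.4 FPKM against 3.24 to 6.94 FPKM, and control replicate 2 lay within the mutant range. Control replicate 3 is also the heart with the highest hepatocyte markers, whose part in the value was not tested. The mean was 6.2 ± 3.16 CPM in controls and 3.49 ± 0.748 CPM in mutants, a log2 fold change of -0.83 ± 0.36 (SE, edgeR unadjusted p = 0.0516, adjusted p = 0.879). It was -0.35 without control replicate 3 and -1.12 without control replicate 2.

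Of the degrading enzymes Cyp26b1 was far more abundant than Cyp26a1, and neither passed the test. Cyp26b1 (ENSMUSG00000063415, chr6:84571414-84593908, minus strand) supplied 79.9% to 90% of the summed FPKM of the Cyp26 genes in controls and 84.5% to 98.1% in mutants. It stood at 3.39, 3.19 and 2.08 FPKM in control replicates 2, 3 and 5 and at 1.87, 3.40 and 3.23 FPKM in mutant replicates 1, 5 and 10. As for Aldh1a2, control replicate 5 and mutant replicate 1 were the low hearts, and the groups overlapped. The log2 fold change was 0.01 ± 0.27 (SE, edgeR adjusted p = 0.999), with an interval from 0.656-fold to 1.54-fold, and its sign differed between fits.

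Cyp26a1 (ENSMUSG00000024987, chr19:37697798-37701536), the gene whose promoter carries the direct repeat shown above, had few counts, with 34, 40 and 37 in control replicates 2, 3 and 5 and 31, 23 and 6 in mutant replicates 1, 5 and 10. All mutant hearts were below all controls, though mutant replicate 1 (0.596 CPM) was next to control replicate 2 (0.604 CPM), and mutant replicate 10 was the lowest at 0.119 CPM. The mean was 0.713 ± 0.119 CPM in controls and 0.385 ± 0.243 CPM in mutants, a log2 fold change of -0.88 ± 0.53 (SE, edgeR adjusted p = 0.957), which was -0.46 without mutant replicate 10 and -1.34 without mutant replicate 1. The related Cyp26c1, which is not among the 9 genes, had 3, 1 and 4 counts in controls and 0 in each mutant heart, close to a floor of 3 counts and too few to compare. The ratio of summed Cyp26 to summed Aldh1a FPKM was 0.121, 0.132 and 0.198 in controls and 0.121, 0.149 and 0.118 in mutants (log2 difference -0.19, exact permutation p = 0.5). The controls and mutants overlapped in this ratio, and the difference was 0.02 without control replicate 5.

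For each of the 6 genes whose log2 CPM ranged over more than 1, the nearest profiles among the tested genes were sought by the root mean square difference of centred log2 CPM over the 6 hearts. Aldh1a1 was nearest to Gm8995 (0.17), Bcar3 (0.17), a gene known only by a clone name, Irgm2 (0.19) and Krt8 (0.20). Krt8 is a keratin of the epicardial marker list, whose members moved in opposite directions. A search over all 6 hearts also picks up genes with a like difference between the groups. That DESeq2 called Krt8 as well is therefore not separate evidence. Crabp1 was nearest to Gm9840 (0.09), Gm12940 (0.11) and Snx22 (0.12), and Crabp2 to Amdhd1 (0.15), Lrfn2 (0.17) and Hist1h3i (0.20). The low-count genes had Gm26514 (0.17) nearest to Aldh1a3 and H2-M5 (0.14) nearest to Cyp26a1. None of the 9 genes was among the 5 nearest of any of these 6, and the nearest profiles of Rdh10, Dhrs3 and Cyp26b1 were not sought.

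Beyond the 9 genes, 37 other genes of retinoid uptake, storage, transport and metabolism were listed, of which 35 were in the table and 21 were tested. Of these, 12 were higher and 9 lower in mutants, with a median log2 fold change of 0.04, and 0 had an adjusted p under 0.05 in edgeR or DESeq2. At an unadjusted p under 0.05 in edgeR, 1 was higher and 3 were lower, against 3.14% and 2.59% of all genes tested. The lower ones were Lrat, Rbp4 and Ttr, of which Rbp4 and Ttr followed a single heart, as described below. The higher one was Dhrs9, a short-chain retinol dehydrogenase, with 2, 6 and 8 counts in controls and 16, 42 and 29 in mutants (log2 fold change 2.41 ± 0.63, SE, edgeR adjusted p = 0.534). DESeq2 called Dhrs9 when control replicate 5 was left out (adjusted p = 0.035), and its difference was 0.14 and 0.85 on the scales log2(FPKM + 1) and log2(FPKM + 0.1), which understate low genes. Lrat, which esterifies retinol for storage, had 37, 22 and 24 counts in controls and 5, 15 and 16 in mutants (log2 fold change -1.17 ± 0.51, SE, edgeR adjusted p = 0.868). The groups of both genes did not overlap, at low counts. Over all genes tested, 6.61% were higher and 4.59% lower without overlap.

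Rbp4 and Ttr, the plasma carriers of retinol made in large amounts by hepatocytes and the yolk sac, followed a single heart. Rbp4 had 1486 counts in control replicate 3 and between 28 and 70 in the other 5 hearts, and Ttr had 903 counts there and between 13 and 55 elsewhere. Alb, the albumin gene, had 17429 counts in that heart and between 0 and 289 elsewhere. Without control replicate 3, the log2 fold changes of Rbp4 and Ttr moved from -3.32 and -3.18 to 0.45 and -0.05. The most abundant genes of the list showed small differences: Fabp5, a carrier of fatty acids and retinoic acid, had a log2 fold change of 0.27 (edgeR adjusted p = 0.92, and DESeq2 adjusted p = 0.019 without control replicate 5), Adh5, a broad alcohol dehydrogenase, of -0.02, and Lpl, which helps cells take up retinyl esters, of 0.25.

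All 6 retinoic acid and retinoid X receptor genes were tested, 2 were higher and 4 lower, and 0 had an unadjusted p under 0.05 in edgeR (median log2 fold change -0.12). Rara was at 22.9 ± 1.62 FPKM in controls and 24.2 ± 1.23 FPKM in mutants (SD, n = 3), a log2 fold change of 0.11 (edgeR adjusted p = 0.985). Rxra, at 40.1 ± 4.53 and 39.8 ± 3.48 FPKM, and Rxrb, at 64.5 ± 8.59 and 57.7 ± 1.67 FPKM, had log2 fold changes of 0.02 and -0.13.

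Of 23 genes known to respond to retinoic acid, 4 are among the 9 genes. Of the other 19, 15 were tested, 2 were higher and 13 lower in mutants, and their median log2 fold change was -0.13, against -0.00 over all genes. Of all 17473 genes tested, 8774 were lower. The 13 included Meis2 (-0.00) and Nrip1 (-0.02), which hardly differed. They also included Hoxa5 and Hoxb5, which were highest in control replicate 3 (1133 and 89 counts). The 2 with an unadjusted p under 0.05 in edgeR, Nr2f1 and Nr2f2, were both lower, against 2.59% of all genes tested. They encode the COUP-TF nuclear receptors, Nr2f2 being an atrial and venous identity factor. Nr2f1 had 2255, 1556 and 1660 counts in control replicates 2, 3 and 5 and 1257, 670 and 778 in mutant replicates 1, 5 and 10. All mutants were below all controls (0.5-fold, with a 95% interval from 0.338-fold to 0.742-fold), with an adjusted p of 0.456 in edgeR and 0.0114 in DESeq2. With single hearts left out, DESeq2 kept the call of Nr2f1 without control replicate 3 (adjusted p = 0.00503) and without mutant replicate 1 (9.93e-06). The call was lost in the other 4 settings, with adjusted p-values of 0.153 and 0.271 without control replicates 2 and 5 and of 0.227 and 0.258 without mutant replicates 5 and 10, while the log2 fold change lay between -1.30 and -0.82 in all 6. Nr2f2 had 3060, 2731 and 2107 counts in controls and 1768, 2239 and 2062 in mutants, lower without overlap in CPM. Its log2 fold change was -0.35 ± 0.12 (SE, adjusted p = 0.762 in edgeR and 0.583 in DESeq2). Of all genes tested, 4.59% were lower in mutants without overlap, as Nr2f1 and Nr2f2 were. Antisense genes share exon bases with both, A830082K12Rik with Nr2f1 (2.42% of its exon bases) and B130024G19Rik with Nr2f2 (7.46%). Whether the counting used strand is not given in the sources used here, and the part of antisense reads was not tested.

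**Figure D5:**
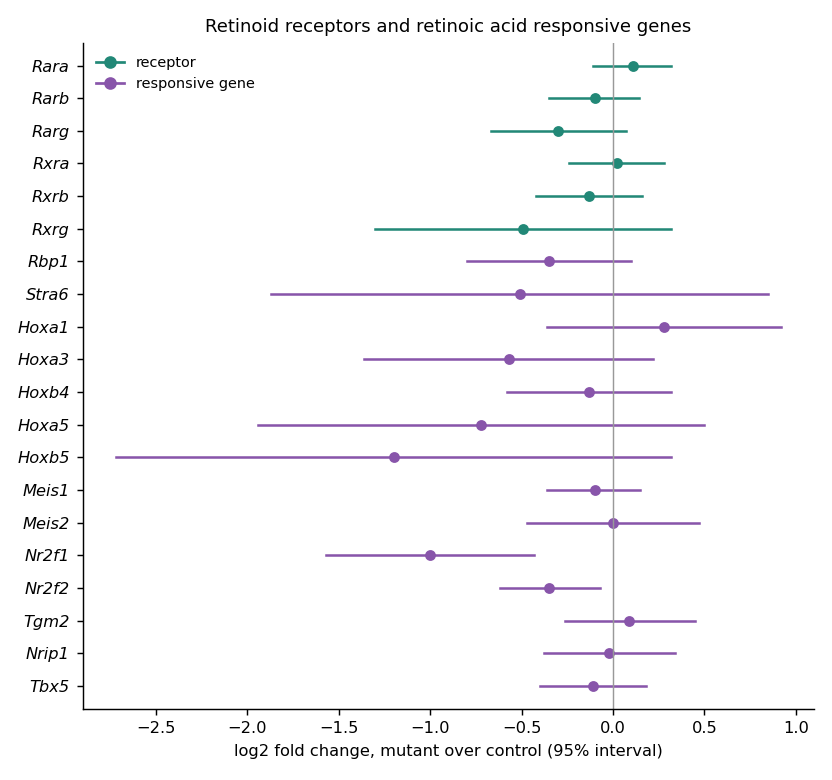
Log2 fold change, mutant over control, with its 95% interval (edgeR, n = 3 per group) for the 6 receptor genes (green) and the other 14 tested genes known to respond to retinoic acid (purple). The intervals of 2 of the 20 genes, Nr2f1 and Nr2f2, lie below 0 before adjustment, and none lies above 0. Of all genes tested, 2.59% were lower and 3.14% higher at an unadjusted p under 0.05 in edgeR.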

How the data were processed

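RNA from 6 whole hearts was analysed, 3 control and 3 mutant, grouped by the labels. Per the methods of the study, reads were trimmed, aligned with STAR to the mouse genome mm10 and assigned to genes with featureCounts, while the submitters' processing notes name HTSeq and DESeq2; the strand setting is not given in the sources used here. The authors deposited raw counts per gene, and FPKM values that equal the count over a gene's fixed length and the library total. A further deposited table of group means was not used. 0 columns of per-sample values were unmapped.

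The genes and gene lists were chosen with earlier results of these data known. Counts were tested with edgeR 4.0.16 in R 4.3.3 (quasi-likelihood test, TMM, filterByExpr with minimum counts of 10 and, summed, 15, two-sided, no covariate), with Benjamini-Hochberg adjustment over the 17473 genes tested and a threshold of 0.05. The interval of a log2 fold change is at 95%. Ratios of FPKM within a heart were compared on the log2 scale with exact permutation tests over the 20 regroupings (scipy 1.17.1). Named were the 9 genes, Wt1, the 5 nearest profiles of any of the 9 whose log2 CPM ranged over more than 1, other retinoid genes and receptors with an unadjusted p under 0.05 or the 3 highest mean FPKM of their list, and responsive genes with an unadjusted p under 0.05. Alb, Cyp26c1, Hoxa5, Hoxb5, Meis2, Nrip1, C3, Crip1, Tcf21, Rspo1 and Krt8 (as an epicardial marker) were chosen after their values were seen. Of the nearest profiles not all are printed.

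The alternatives were DESeq2 1.42.0, limma 3.58.1 (voom, and trend fits on log2(FPKM + 1) or log2(FPKM + 0.1)), other size factors, no filter, a filter of CPM over 1 in 3 hearts, removal of the gene length trend in every heart (local regression, span 0.5), the mean of the epicardial markers as a covariate, and leaving out each heart. DESeq2 with a heart left out, and the length correction without control replicate 5, were added after seeing the data. Scripts were tested on simulated data. No 2 hearts agreed within counting noise. Depth was 44244665 to 56373393 counts per heart. Without molecular identifiers reads need not be separate molecules, so floors cover counting error only. Nothing says more than that each library is 1 heart, so p-values measure the spread between these hearts. Gene positions are from GENCODE M21 on GRCm38, and promoter windows from RefSeq on GRCm38.p6.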

Additional observations from a re-analysis of the deposited data

How the results depend on the processing

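No paired analysis was possible because the labels name no litters or pairs. The groups share only replicate number 5, and nothing says that this number marks a pair. The number of genes with an adjusted p under 0.05 was 0 in edgeR and 133 with DESeq2, 34 with no filter, 6 with the length trend removed, 34 with the epicardial covariate and 42 with the length trend removed without control replicate 5. It lay between 0 and 44 in edgeR with each heart left out (44 without control replicate 5), and in DESeq2 was 96, 107 and 447 without control replicates 2, 3 and 5 and 138, 71 and 71 without mutant replicates 1, 5 and 10. Of the 9 genes, 1 passed with DESeq2 (Aldh1a1), and 0 or 1 in DESeq2 with a heart left out. The median over the 9 genes lay between -0.37 and -0.14 in all settings. Without control replicate 5 the log2 difference in the ratio of breakdown to synthesis was 0.02, in a range over the hearts left out from -0.33 to 0.02.

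Values near 0 changed sign, and the cause was not tested. Cyp26b1 was -0.04 with limma-voom, the trend fit at 0.1 and the length correction, -0.03 with the trend fit at 1, -0.00 with the strict filter, -0.01 with the epicardial covariate, between -0.17 and 0.25 with a heart left out (-0.13 without mutant replicate 5 or 10) and -0.14 with the length correction without control replicate 5. Crabp1 lay between -0.67 and 0.16 with a heart left out, at 0.14 (DESeq2 0.13) without control replicate 5, 0.16 (0.15) without mutant replicate 10, and at 0.07 with the length correction without control replicate 5. Wt1 was 0.13 without control replicate 2 and 0.16 without mutant replicate 1. Rxra was -0.01 with the trend fits and the length correction, between -0.06 and 0.09 with a heart left out (-0.06 and -0.05 without control replicate 5 and mutant replicate 5), and -0.05 with the length correction without control replicate 5. Adh5 was 0.03 without control replicate 5 and between 0.00 and 0.01 without mutant replicate 1 or 5 or with the length correction without control replicate 5. Rbp4 was 0.45 without control replicate 3 and as low as -3.88 with another heart left out. Depth limits the values of genes with few counts, among them Aldh1a3, Cyp26a1, Dhrs9, Lrat and Cyp26c1.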
